A study of Mus musculus with 44 samples.

Results

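Dlk1, Meg3, Rtl1, Rian, Mirg and Dio3 are the main long transcripts of the Dlk1-Dio3 imprinted locus on distal mouse chromosome 12. Their levels were read in RNA captured with the labelled ribosomes of Emx1-lineage hippocampal neurons from adolescent mice. The 6 genes were selected by symbol, by matching the Ensembl identifiers of the count table to the GENCODE annotation of GRCm38, and they were 6 of the 55335 genes in that table. Rtl1 had already been seen to fall with exercise in one of the comparisons made here, so its values in that comparison are given as a description.

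The locus is silenced according to the parent of origin. Dlk1, Rtl1 and Dio3 are coding genes expressed from the paternal chromosome, whereas Meg3, Rian and Mirg are noncoding RNAs expressed from the maternal chromosome in a single long transcriptional domain that also carries many snoRNAs and microRNAs. Dlk1 encodes a Notch-related membrane protein that restrains differentiation and is a niche factor for neural stem cells. Rtl1 encodes a retrotransposon-derived protein best known from the placenta. Dio3 encodes the deiodinase that inactivates thyroid hormone. Meg3, Rian and Mirg are abundant in brain neurons and are largely kept in the nucleus.

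All libraries came from male Emx1-NuTRAP mice, in which an Emx1-driven Cre recombinase switches on labels on the ribosomes and on the nuclear membrane, mostly in excitatory forebrain neurons but also in progenitors and some astrocytes. Exercised mice had running wheels from postnatal day 21 to 41 (early-life exercise, ELE), and sedentary mice had none. Ribosomes were captured by translating ribosome affinity purification (TRAP) in 2 ways: simultaneous isolation (SIT), in which RNA was taken from a homogenate of both hippocampi after the nuclei had been pulled out, and separate isolation, in which 1 hippocampus was homogenized for TRAP alone. There were 4 ELE and 4 sedentary SIT libraries, and 3 ELE and 3 sedentary separate libraries from the left and as many from the right hippocampus, each from a different mouse.

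Depth ran from 45895097 to 65767802 gene-assigned counts per library over the 20 libraries, so 3 counts, the limit that a count of 0 allows, stood for 0.0453 to 0.0657 CPM (counts scaled to a library total of 1000000, with TMM factors). The study compared 3 ELE with 2 sedentary SIT libraries, and the 5 could be recognized among the 8 because their mean normalized counts matched for 633 of 633 genes compared with the study's lists. NT6.304 (ELE) and NT7.2.3 and NT7.2.4 (both sedentary) were therefore left out of the tests unless stated, and 17 libraries entered them. For the sedentary samples it excluded, the study's reporting summary gives much ribosomal RNA and other RNA that was not messenger RNA as the reason. The authors held an error in RNA isolation to be likely there. The sedentary NT7.2 pair stood apart by its microglial markers, which summed to 177 to 185 CPM against 2.35 to 9.16 CPM in the 18 other libraries. Its inhibitory neuron markers summed to 852 to 879 CPM, against 77.9 to 79.2 CPM in the 2 other sedentary SIT libraries, 894.3 CPM in NT6.304 and at most 367 CPM elsewhere. The NT6.304 sum was mostly Npy (784.9 CPM, against 38.9 and 48.5 CPM in the pair), and Npy reached 301.1 CPM in the separate libraries. Over the 18 other libraries, Gad1 reached at most 62.3, Gad2 34.1, Sst 10.2, Slc32a1 5.55, Pvalb 1.77 and Vip 1.47 CPM. Their means in the NT7.2 pair were 274.9, 185.7, 247.1, 73.8, 27.0 and 13.6 CPM. The excitatory markers summed to between 6980.2 and 10560.5 CPM in the 17 libraries used. In such bulk libraries, fewer cells of a type and less RNA per cell cannot be told apart.

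Dlk1 and Dio3 lay at opposite ends of the cluster, and the other members lay in the part nearer to Dlk1. Dlk1 (ENSMUSG00000040856.17) occupied chr12:109452823-109463336 on the plus strand of GRCm38 and Dio3 (ENSMUSG00000075707.5) chr12:110279068-110281097, also on the plus strand. Between them the noncoding members followed each other on the plus strand: Meg3 (ENSMUSG00000021268.17) at chr12:109541001-109571726, Rian (ENSMUSG00000097451.11) at chr12:109603940-109661716 and Mirg (ENSMUSG00000097391.8) at chr12:109729764-109749460. Rtl1 (ENSMUSG00000085925.3) was the only member on the minus strand, at chr12:109589193-109600330 between Meg3 and Rian. From the start of Dlk1 to the end of Dio3 the interval measured 828275 bp and held 118 annotated genes, of which 116 were in the count table, 94 of them small RNA genes. Of the 110 genes there that are not members, 3 reached 100 counts over all libraries (Gm3379, Dio3os and Gm40576). Dio3os starts beside Dio3 and runs the other way on the minus strand, and the counting kept the strands apart.

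**Figure D1:**
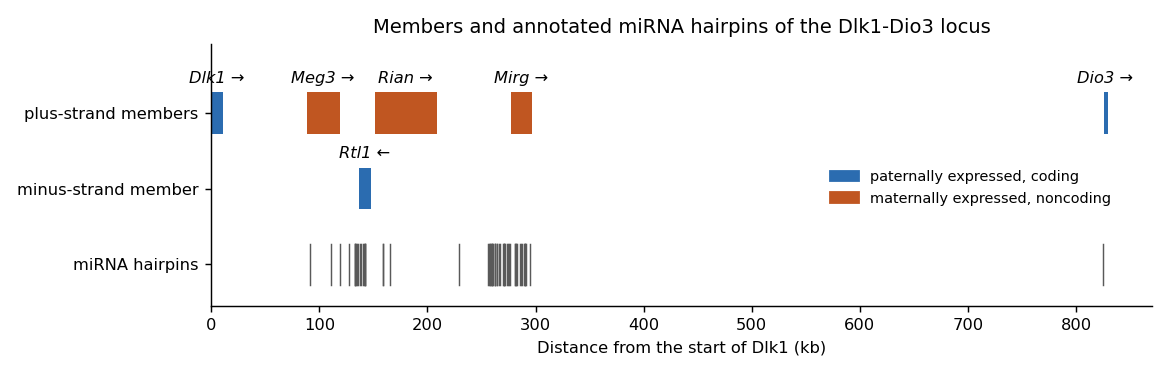
Map of the Dlk1-Dio3 interval. The horizontal axis is the distance in kb from the Dlk1 start. Boxes are the 6 members from the GENCODE annotation, with the paternally expressed coding genes in blue and the maternally expressed noncoding genes in orange, arrows give the strand, and ticks mark microRNA hairpins. Most hairpins stand in groups around Rtl1 and around Mirg, inside the 828275 bp interval.

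The promoters of Dlk1, Meg3 and Dio3 are printed because Dlk1 and Dio3 moved together over the separate libraries while Meg3 did so less. Each is 300 bases of RefSeq sequence on GRCm38.p6, from 250 bases before the start to 50 after it. Capitals mark the motifs searched on both strands, a cAMP response element (TGACGTCA, its own reverse complement) and a TATA box (TATAAA).
Meg3 promoter, chr12:109540746-109541045, plus strand: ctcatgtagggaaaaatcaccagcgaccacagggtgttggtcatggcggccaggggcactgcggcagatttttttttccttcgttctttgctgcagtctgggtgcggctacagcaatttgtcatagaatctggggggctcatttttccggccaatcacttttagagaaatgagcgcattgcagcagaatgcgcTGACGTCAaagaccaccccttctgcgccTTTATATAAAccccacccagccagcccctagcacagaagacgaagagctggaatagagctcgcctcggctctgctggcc
Dio3 promoter, chr12:110278980-110279279, plus strand: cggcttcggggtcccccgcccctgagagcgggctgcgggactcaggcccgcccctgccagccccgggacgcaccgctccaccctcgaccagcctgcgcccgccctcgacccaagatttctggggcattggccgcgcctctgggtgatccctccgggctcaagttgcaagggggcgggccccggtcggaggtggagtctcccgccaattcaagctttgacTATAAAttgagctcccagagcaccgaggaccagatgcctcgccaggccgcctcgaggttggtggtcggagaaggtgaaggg
Dlk1 promoter, chr12:109452573-109452872, plus strand: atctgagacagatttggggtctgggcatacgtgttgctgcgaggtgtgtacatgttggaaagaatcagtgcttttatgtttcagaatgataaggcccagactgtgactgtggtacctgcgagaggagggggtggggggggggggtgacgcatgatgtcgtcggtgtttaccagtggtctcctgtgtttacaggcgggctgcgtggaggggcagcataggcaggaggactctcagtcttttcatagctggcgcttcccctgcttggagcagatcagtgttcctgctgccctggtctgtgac

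Counting the RefSeq start as 0, the Meg3 window held TGACGTCA with its first base at -57 and TATAAA at -25, and the latter overlapped its own reverse complement at -29. The Dio3 window held TATAAA at -31 and no TGACGTCA. The Dlk1 window held neither. Of 32851 RefSeq promoters of the same length, 588 (1.79%) held TGACGTCA and 4473 (13.6%) held TATAAA. The Dio3 window was GC-rich, with 25 CpG dinucleotides and 69% GC, compared with 13 CpG in the Meg3 window printed, 9 in Dlk1 and a median of 7 and 52.7% GC over all promoters. RefSeq holds a further Meg3 promoter entry at chr12:109545148-109545447, with 1 CpG and neither motif. A motif match is a description of the sequence and not a measured binding site.

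The noncoding transcripts also give rise to microRNAs, which were not measured in these poly(A)-selected gene counts. RefSeq placed 113 mature microRNAs from 61 hairpins in the interval. Of the mature forms, 26 lay within Mirg, 6 within Rian and 3 within Meg3 on the same strand, and 11 lay opposite Rtl1. A few are printed because each marks the host or antisense relation of 1 member, with the seed (bases 2 to 8) in capitals.
miR-770-5p, chr12:109563710-109563731, plus strand: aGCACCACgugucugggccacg
miR-127-3p, chr12:109592888-109592909, plus strand: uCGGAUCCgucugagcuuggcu
miR-136-5p, chr12:109595331-109595352, plus strand: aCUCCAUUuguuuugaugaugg
miR-370-3p, chr12:109618305-109618326, plus strand: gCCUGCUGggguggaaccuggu
miR-134-5p, chr12:109734145-109734166, plus strand: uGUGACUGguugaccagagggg
miR-410-3p, chr12:109743764-109743784, plus strand: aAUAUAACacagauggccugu

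The first of these lies within Meg3, the next pair opposite Rtl1, miR-370-3p within Rian and the last pair within Mirg. The 113 mature forms had 104 different seeds, so few of them shared one. The maternal precursor opposite Rtl1 is perfectly complementary to the Rtl1 transcript, which its microRNAs are known to cleave.

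Meg3, Rian, Dlk1 and Dio3 were plainly present in the captured RNA and the other pair was scarce. No input RNA was set beside the capture, and oligodendrocyte markers summed to 2255 to 3703 CPM in the 17 libraries used. Binding to the labelled ribosomes was therefore not tested. Over the 12 separate libraries, Meg3 averaged 67.1 ± 21.6 CPM (SD, n = 12), Rian 63.8 ± 4.39 CPM and Dlk1 17.8 ± 9.03 CPM, while Dio3 averaged 5.09 ± 3.39 CPM. Mirg averaged 0.908 ± 0.341 CPM. Rtl1 averaged 0.189 ± 0.180 CPM and was near the counting limit, with 0 to 26 counts per library. Corrected for exonic length, Meg3 (3.71 CPM per kb), Rian (3.50), Dlk1 (3.15) and Dio3 (2.51) stood close together, and Mirg (0.125) and Rtl1 (0.0297) were far lower. The first 4 thus exceeded 67.3% to 71.9% of the 29316 genes with any count, Mirg 40.8% and Rtl1 26.7%.

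Neighbours in this order did not differ beyond their spread among the top 4. Per kb, Meg3 was above Rian in 6 of 12 libraries, Rian above Dlk1 in 6 of 12 and Dlk1 above Dio3 in 9 of 12. Dio3 was above Mirg in 12 of 12 libraries, by 20.1-fold in the means, and the lowest Dio3 value (0.352 CPM per kb) stayed above the highest Mirg value (0.223). Mirg was above Rtl1 within each of the 12 libraries, by 4.19-fold in the means, although the lowest Mirg value (0.0745) and the highest Rtl1 value (0.0778) overlapped between libraries.

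The members differed widely in how steady they were. Rian, the snoRNA-host noncoding RNA, was the steadiest, with a highest separate library only 1.25 times the lowest (58.3 to 72.8 CPM). Meg3 ranged over 2.50-fold (44.0 to 110.1 CPM) and Mirg over 3.00-fold (0.543 to 1.63 CPM). Dlk1 ranged over 5.64-fold (5.39 to 30.4 CPM) and Dio3 over 18.1-fold (0.714 to 12.9 CPM). The SD of the log2 level within groups was 1.19 for Dio3, 0.87 for Dlk1, 0.50 for Meg3 and 0.10 for Rian, against a median of 0.175 over 14129 genes at 1 CPM or more. Dio3 and Dlk1 were therefore more variable between mice of a group than 99.3% and 98.4% of those genes, Meg3 than 92.1% and Rian than 15.4%.

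**Figure D2:**
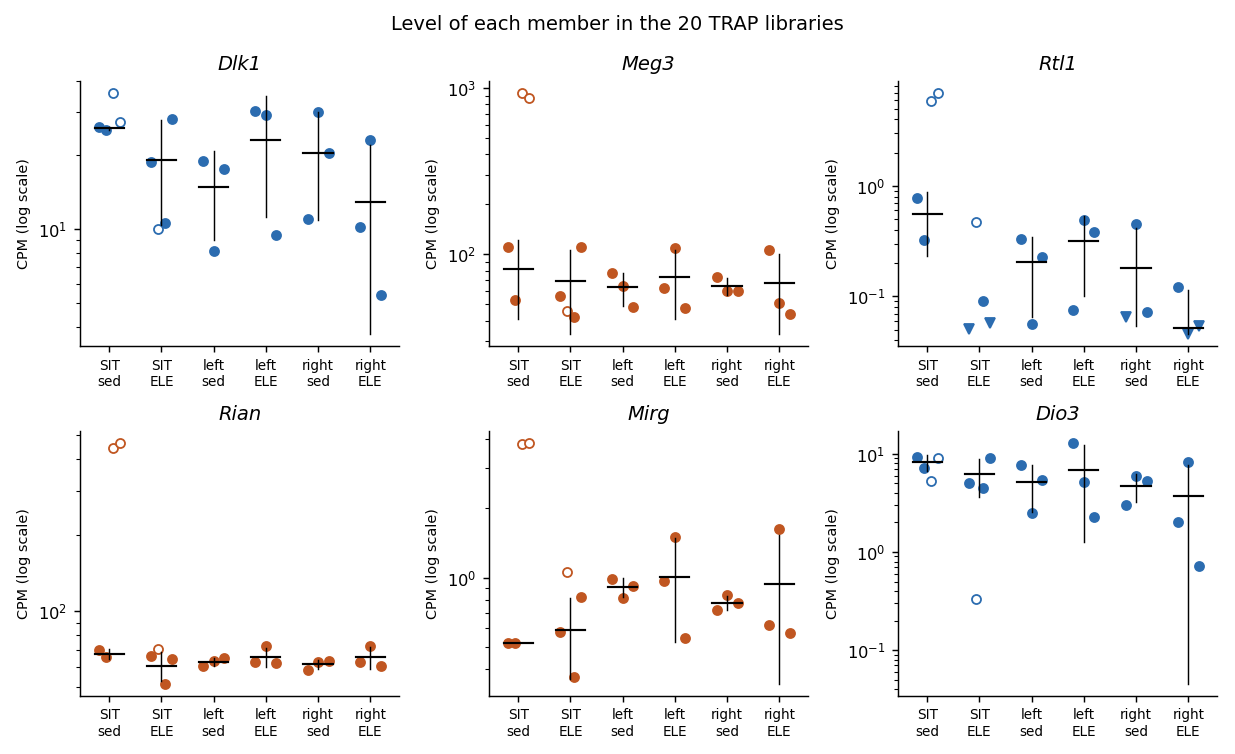
Level of each member in each library. Each panel is 1 gene, the vertical axis is CPM on a log scale, and the columns are the sedentary and ELE groups of SIT, left and right isolations. Filled points are libraries used in the tests, open points the 3 SIT libraries left out, triangles values under 3 counts drawn at that limit, and bars the mean and SD of the used libraries. The NT7.2 pair's open sedentary SIT points stand far above the others for Meg3 (937 and 872 CPM), Rian, Mirg and Rtl1 but not for Dlk1 and Dio3, and the Rian points otherwise form a nearly flat line.

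The question put to the study was whether early-life running changes what these neurons translate. In the SIT isolation, Dlk1 stood at 26.0 and 25.4 CPM in the sedentary libraries and at 18.8, 10.6 and 28.2 CPM in the ELE libraries. Dio3, the thyroid hormone-inactivating enzyme, stood at 9.29 and 7.12 CPM in sedentary and at 5.02, 4.44 and 9.14 CPM in ELE mice. In both genes 2 of the 3 ELE libraries lay below the sedentary ones and TG7.4.2 did not, so the groups overlapped. Meg3 stood at 110.5 and 53.0 CPM in sedentary and at 56.0, 42.0 and 110.5 CPM in ELE libraries, and again overlapped. Rian was at 69.9 and 65.4 CPM against 66.1, 51.5 and 64.7 CPM, and Mirg at 0.517 and 0.519 CPM against 0.577, 0.367 and 0.820 CPM.

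None of these 5 members passed the threshold of an unadjusted p of 0.05 and a 1.3-fold change in the edgeR quasi-likelihood test. The log2 difference (ELE over sedentary) was -0.43 ± 0.31 (SE) for Dlk1, with a 95% interval of -1.12 to 0.27, and -0.40 ± 0.32 for Dio3, with an interval of -1.11 to 0.30. It was -0.23 ± 0.38 for Meg3, -0.16 ± 0.13 for Rian and 0.18 ± 0.84 for Mirg. The adjusted p was 0.97 for Dlk1 and Dio3, 0.98 for Rian and 0.9994 for Meg3 and Mirg. Over all genes 681 of 18238 (3.73%) passed. After adjustment 0 genes remained by edgeR, while 1000 had an unadjusted p under 0.05 and there were 14 adjusted calls by DESeq2 and 105 by edgeR without a filter on low counts. Without TG7.4.2, Dlk1 (-0.82, edgeR adjusted p = 0.32), Dio3 (-0.80, adjusted p = 0.32) and Meg3 (-0.75, adjusted p = 0.39) passed the unadjusted threshold.

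Rtl1 was counted 41 and 17 times in the sedentary SIT libraries (0.785 and 0.327 CPM) and 0, 5 and 0 times in the ELE libraries, of which 2 thus lay under the counting limit. The gene passed the filter on low counts through its sedentary libraries alone. This is the contrast in which Rtl1 had been picked out, so it carries no test here. The ELE library left out, NT6.304, held 24 counts (0.472 CPM), which lies above NT6.306. The same library had the lowest Dio3 level of all 20, at 0.334 CPM.

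In the separate libraries the direction of Dlk1 and Dio3 was not the same on the 2 sides. On the left, Dlk1 stood at 19.03, 8.15 and 17.6 CPM in sedentary and at 30.4, 29.2 and 9.43 CPM in ELE mice. On the right it stood at 10.97, 30.04 and 20.4 CPM in sedentary and at 10.2, 23.0 and 5.39 CPM in ELE mice. The group mean was thus higher with ELE on the left and lower on the right, with overlapping groups on both sides. Dio3 stood on the left at 7.63, 2.47 and 5.36 CPM in sedentary and at 12.9, 5.12 and 2.28 CPM in ELE mice. On the right it stood at 3.00, 5.91 and 5.30 CPM in sedentary and at 2.03, 8.33 and 0.714 CPM in ELE mice. It overlapped in the same way.

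By the same test, the log2 difference of Dlk1 was 0.63 ± 0.45 on the left (95% interval -0.40 to 1.65) and -0.66 ± 0.48 on the right (-1.72 to 0.40). That of Dio3 was 0.41 ± 0.61 on the left and -0.34 ± 0.67 on the right. The test of the difference between the sides gave 1.29 for Dlk1 (95% interval -0.34 to 2.92) and 0.75 for Dio3, so neither passed. Without TG9.1.3 the right-side difference reached -1.40 for Dlk1 and -1.79 for Dio3 and the difference between sides 2.02 and 2.19, all past the unadjusted threshold. Without TG9.2.2, an ELE library of low Dlk1, the left-side difference of Dlk1 reached 1.004 and the difference between sides 1.66, again past it. None of these had an adjusted p under 0.05, and single mice decided the calls.

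Meg3, Rian and Mirg differed by less than their spread on both sides. Meg3 stood on the left at 76.8, 64.9 and 48.2 CPM in sedentary and at 62.4, 110.1 and 47.6 CPM in ELE mice, and on the right at 73.2, 60.2 and 60.5 against 105.9, 51.3 and 44.0 CPM. Its log2 difference was 0.21 ± 0.29 on the left and 0.05 ± 0.27 on the right, the latter becoming -0.44 and passing the unadjusted threshold without TG7.3.1. Rian stood on the left at 60.5, 63.1 and 64.9 CPM in sedentary and at 62.6, 72.3 and 62.4 CPM in ELE mice. On the right it stood at 58.3, 62.5 and 63.2 against 62.7, 72.8 and 60.7 CPM. Its intervals were narrow, at -0.12 to 0.26 on the left and -0.13 to 0.32 on the right. Mirg differed by 0.14 ± 0.43 and 0.29 ± 0.51.

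Rtl1 had 19, 3 and 13 counts in the left sedentary libraries and 5, 26 and 22 in the left ELE libraries, a log2 difference of 0.62 ± 0.88. On the right it had 1, 22 and 4 counts in sedentary and 6, 0 and 2 in ELE mice and failed the filter on low counts. Thus 0 of 6 members passed on the left, where 376 of 17750 genes (2.12%) did, and 0 of 5 on the right, where 351 of 17570 (2.00%) did. Adjusted calls over all genes were 0 on each side by edgeR, with 699 and 488 genes at an unadjusted p under 0.05, and 0 on the left and 14 on the right by DESeq2. Without the filter edgeR gave 0 and 27.

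Pooling the sides left narrower intervals around 0. With hemisphere as a term and 6 mice per group, the log2 difference was -0.01 for Dlk1 (95% interval -0.89 to 0.86), 0.03 for Dio3 (-1.07 to 1.14), 0.13 for Meg3 (-0.34 to 0.60), 0.08 for Rian (-0.05 to 0.21), 0.21 for Mirg (-0.47 to 0.90) and -0.45 for Rtl1 (-2.39 to 1.48). None of the 6 members passed, against 366 of 18283 genes (2.00%). Left and right hippocampi, which came from different mice, differed by 0.19 for Dlk1, 0.50 for Dio3, 0.05 for Meg3, 0.02 for Rian, 0.16 for Mirg and 1.31 for Rtl1, whose 95% interval was -0.66 to 3.29. None passed there either, against 211 of 18283 genes (1.15%). In the test of the exercise difference between sides 416 of 18810 genes (2.21%) passed and again no member, with Meg3 at 0.16, Rian at -0.03, Mirg at -0.15 and Rtl1 at 2.42 (95% interval -1.41 to 6.25).

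**Figure D3:**
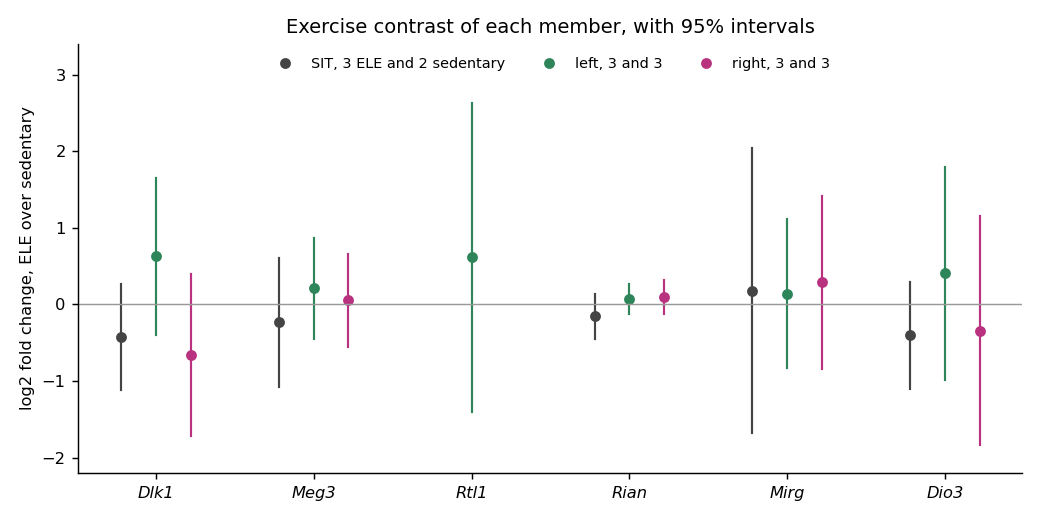
Exercise difference of each member. The vertical axis is the log2 fold change of ELE over sedentary from edgeR, and points with bars are the estimate and its 95% interval in the SIT isolation (3 ELE and 2 sedentary libraries) and in the left and right separate isolations (3 and 3 each). Every interval drawn includes 0, Dlk1 and Dio3 lie above 0 on the left and below 0 on the right, and Rian has the narrowest intervals, while Rtl1 is drawn for the left only because it was at the counting limit on the right and was chosen from the SIT contrast.

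The isolation methods were next compared, because they treat nuclei differently and the noncoding members are nuclear RNAs. In SIT nuclei were pulled out before ribosome capture, while in separate isolation the homogenate was cleared by centrifugation alone. Among sedentary mice, no noncoding member passed. Meg3 differed by 0.36 ± 0.22 (log2, SIT over separate), Rian by 0.14 ± 0.07 with a 95% interval of -0.02 to 0.29, and Mirg by -0.69 ± 0.37 with an interval of -1.49 to 0.11. Dio3 rose, by 0.74 ± 0.33 (edgeR adjusted p = 0.16, past the unadjusted threshold), from 2.47 to 7.63 CPM in the 6 separate libraries to 7.12 and 9.29 CPM in the SIT pair. The groups overlapped by 1 separate library. Dlk1 differed by 0.55 ± 0.34 and did not pass. The summed vessel and meninges markers were also higher there, at 47.1 and 48.4 CPM in the SIT pair against 25.4 to 41.0 CPM in the 6 separate libraries without overlap, mostly through Dcn (39.1 and 44.6 against 13.6 to 34.4 CPM). Of the 5 markers Dcn rose and Acta2 fell, and their part in the Dio3 value was not tested.

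That 1 of the 5 members other than Rtl1 passed stands beside 3016 of 18911 genes (15.9%), a share too close for the count to be a result about the members. The Dio3 call was lost on leaving out any of NT6.305, NT6.306, TG9.1.2, TG9.2.4, TG7.3.3 or TG9.2.3, with values from 0.53 to 0.91 over all such omissions, and Meg3 passed (0.79, edgeR adjusted p = 0.029) without NT6.306. Rtl1 differed by 1.53, given as a description because its levels in these SIT libraries were part of its choice. Among ELE mice, Dio3 differed by 0.24, Dlk1 by 0.10, Meg3 by -0.01, Rian by -0.11 and Mirg by -0.72. Rtl1 failed the filter, and 0 of 5 members passed, against 2446 of 18478 genes (13.2%). The SIT libraries also held 2 hippocampi in place of 1 and were homogenized in another way. The sedentary SIT libraries used came from mice numbered NT6, and all separate libraries from mice numbered TG. Isolation, tissue amount, homogenization and, in sedentary mice, the series of mouse numbers therefore cannot be told apart.

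The test of whether the exercise difference depended on isolation gave -0.50 for Dio3, -0.45 for Dlk1, -0.36 for Meg3, -0.24 for Rian and -0.03 for Mirg, and none passed. Rtl1 gave -4.03, which rests on the SIT libraries in which it was picked out and carries no test. Over all genes, 948 of 20345 genes (4.66%) passed.

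Other RNAs of the same kind were read beside the members. Of 10 nuclear-retained long noncoding RNAs outside the locus, 1 rose and 2 fell in SIT among sedentary mice, with a median log2 difference of -0.10. Miat rose by 0.49, Firre fell by 0.76 and Snhg11 fell by 0.49. Of 8 cytoplasmic long noncoding RNAs, 4 rose and 0 fell, with a median of 0.39, and they included the snoRNA hosts Gas5, Snhg8 and Snhg12. Over all genes 1094 rose and 1922 fell, with a median of -0.01. None of the 10 nuclear RNAs passed among ELE mice, while 5 of the 8 cytoplasmic RNAs rose, against 811 of 18478 genes that rose there and 1635 that fell.

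The 3 libraries left out of these comparisons changed the picture for the maternal RNAs. With all 8 SIT libraries, the log2 difference of ELE over sedentary was -2.96 for Meg3 (edgeR adjusted p = 0.40), -2.05 for Rian (adjusted p = 0.41) and -1.63 for Mirg (adjusted p = 0.54), all past the unadjusted threshold. Dlk1 (-0.77) passed as well and Dio3 (-0.70) did not. Thus 4 of these 5 members then passed, against 1375 of 17531 genes (7.84%), and Rtl1 (-4.64) carries no test here either. Against the separate sedentary libraries, Meg3 was higher by 2.98 on the log2 scale (edgeR adjusted p = 0.0092), Rian by 2.10 (adjusted p = 0.014) and Mirg by 1.40 (adjusted p = 0.11). All 5 members other than Rtl1 then passed, against 2961 of 18086 genes (16.4%), and Rtl1 (4.19) is a description, since its levels in the sedentary SIT libraries were part of its choice.

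The NT7.2 pair held the high values of the maternal RNAs and of Rtl1, whereas NT6.304, added with it, held low Dlk1 (10.0 CPM) and Dio3 (0.334 CPM). The exercise fit took in both additions, the comparison of isolations in sedentary mice only the NT7.2 pair. Meg3 was at 937 and 872 CPM in NT7.2.3 and NT7.2.4, against 110.5 and 53.0 CPM in NT6.305 and NT6.306, an 11.1-fold difference of the means. Rtl1 was at 5.85 and 6.93 CPM (308 and 387 counts), 11.5-fold above the other sedentary pair. Mirg was at 3.82 and 3.87 CPM, 7.42-fold higher, and Rian at 445 and 465.8 CPM, 6.73-fold higher. The ends of the locus did not share this. Dlk1 was at 35.9 and 27.4 CPM (1.23-fold) and Dio3 at 5.30 and 9.11 CPM (0.879-fold).

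Few genes differed as much in that pair. Of 14102 genes averaging 1 CPM or more in NT6.305 and NT6.306, 90 (0.638%) were over 5-fold higher and 603 (4.28%) over 2-fold higher, with a median of 0.972. Among these, 48 genes had a larger fold than Meg3 and 66 a larger fold than Rian. Genes lower in those libraries, such as C1qa (50.8-fold), were not ranked. Of 10 nuclear-retained RNAs from other loci, 7 were over 2-fold higher, including Firre (9.74-fold), Snhg11 (9.09-fold), Miat (8.42-fold) and Malat1 (6.90-fold), and Tug1 (1.11-fold), Peg13 (1.04-fold) and Pantr1 (0.489-fold) were not. Of 8 cytoplasmic RNAs, 1 was over 2-fold higher. Microglial markers (6 of 6 genes, 35.0 to 50.8-fold) and inhibitory neuron markers (7 of 7, 5.40 to 30.9-fold) were also higher, as were the endothelial markers (summed to 11.1 to 11.8 against 1.33 to 2.03 CPM, with Cldn5 at 10.8-fold) and, of the vessel and meninges list, Col1a1 (11.5-fold), Slc6a13 (9.59-fold) and Igf2 (4.86-fold) but not Dcn (1.04-fold) or Acta2 (0.619-fold), whereas 0 of 9 excitatory and 0 of 7 astrocyte markers passed 2-fold. The part of these cell types, of nuclear RNA and of an error in RNA isolation in the Meg3, Rian, Mirg and Rtl1 levels was not tested. The counts carry no test of a pair of libraries chosen for standing apart.

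**Figure D4:**
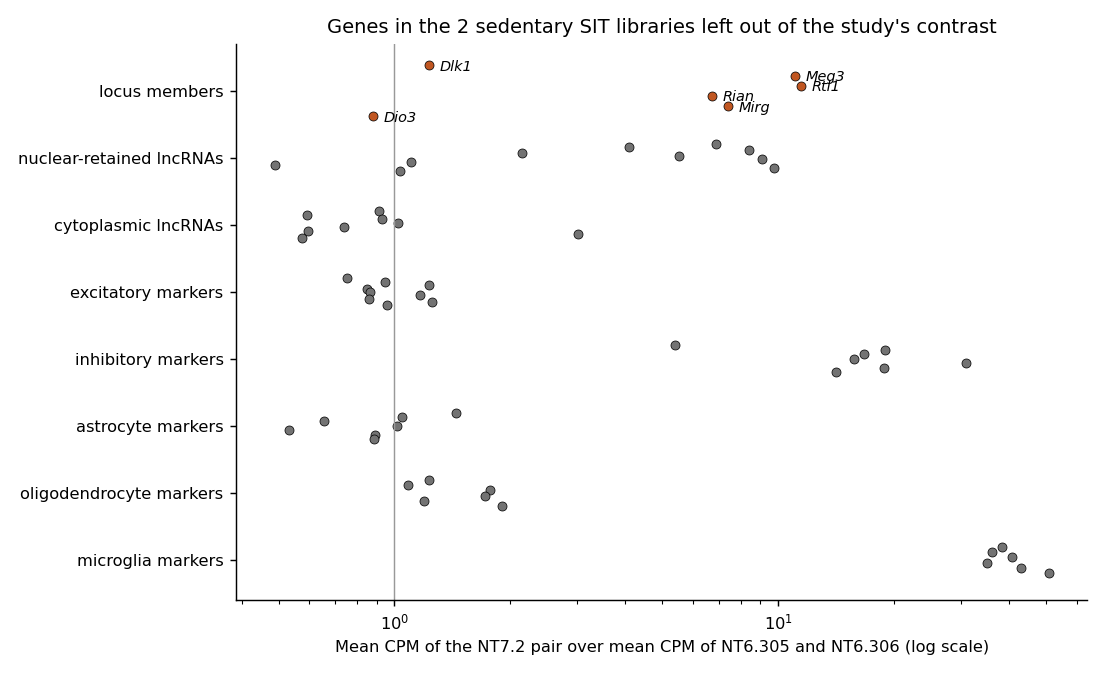
The NT7.2 pair against the other sedentary SIT pair. The horizontal axis is the fold of the mean CPM of NT7.2.3 and NT7.2.4 over the mean of NT6.305 and NT6.306 on a log scale, points are genes, and they are grouped into the members and the fixed lists. Meg3, Rtl1, Mirg and Rian lie between 6.73 and 11.5-fold, below the microglial markers, while Dlk1, Dio3 and the excitatory markers lie near 1.

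Dlk1, Dio3 and Mirg varied together over the separate libraries. Over the 12 separate libraries, Dlk1 and Dio3, the coding genes at opposite ends of the locus, had a Pearson r of 0.912 (permutation p = 7e-05, adjusted p = 0.00070 over 10 pairs) and a Spearman rho of 0.839 (permutation p = 0.0012, adjusted p = 0.011). The r was 0.853 without the 2 libraries farthest from the median of Dlk1, 0.869 on the left and 0.953 on the right. In the 6 SIT libraries without the NT7.2 pair it was 0.782 (exact permutation p = 0.0028, adjusted p = 0.028), with a rho of 0.943 that did not pass (adjusted p = 0.17). NT6.304, the library lowest in Dio3, is among these 6. Mirg followed both ends, with an r of 0.721 with Dlk1 (permutation adjusted p = 0.026) and 0.700 with Dio3 (adjusted p = 0.028). Those values were -0.049 and -0.60 in the 6 SIT libraries, so the relation did not hold there. Rian and Mirg had an r of 0.801 (adjusted p = 0.020), which fell to 0.208 without the 2 farthest libraries and thus rested on them. Taken as deviations from group means, Dlk1 and Mirg had an r of 0.821 and a rho of 0.916 (permutation adjusted p = 0.0022 and 0.00070), close to the r of 0.922 and rho of 0.909 of Dlk1 and Dio3, and Mirg and Dio3 an r of 0.759 and a rho of 0.839. On that scale Rian and Mirg had an r of 0.849 (permutation adjusted p = 0.0023) and a rho of 0.755 (adjusted p = 0.015). Dlk1 and Rian had an r of 0.660 (permutation adjusted p = 0.040), against 0.482 otherwise (adjusted p = 0.23). These permutations took the 12 deviations as independent, although those of a group are tied through its mean. The p-values on this scale are therefore likely too small, and no call is drawn from them.

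Over the 12 separate libraries Meg3 had no relation past the threshold with the rest of its locus. Its r with Dlk1, Rian, Mirg and Dio3 lay between 0.142 and 0.249 (permutation adjusted p of 0.55 or more), including with Rian and Mirg, its neighbours in the same transcriptional domain. On the left alone the r was 0.839 with Mirg and 0.609 with Rian, and on the right -0.298 and -0.262. In the 6 SIT libraries Meg3 had an r of 0.791 with Dlk1 (rho 0.829, exact permutation adjusted p = 0.42 for r and 0.19 for rho) and of 0.577 with Dio3 (rho 0.886, adjusted p = 0.49 and 0.17), sizes near that of Dlk1 with Dio3 there. Rtl1, under 0.5 CPM, was left out.

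The genes elsewhere in the genome most like each member in pattern were of different kinds. Among 14128 genes at 1 CPM or more, the highest r with Meg3 over the 12 separate libraries belonged to Snhg11 (0.9704, and 0.951 in the 6 SIT libraries) and Malat1 (0.929 and 0.810), both nuclear noncoding RNAs, followed by Klhl26 (0.918 and -0.822). Those nearest to Dlk1 were Timp2 (0.943 and 0.905), an inhibitor of metalloproteinases, Col23a1 (0.940 and 0.948), a collagen, and Tpbg (0.937 and 0.103), with Dio3 in the 7th place. Those nearest to Dio3 were Rxrg (0.947 and 0.861), a retinoid X receptor, Atg9b (0.946 and -0.665) and Trhr (0.944 and 0.921), the thyrotropin-releasing hormone receptor, with Dlk1 in the 11th place. Rian, which hardly varied, was nearest to Rwdd4a (0.926 and 0.719), Fam78a (0.909 and 0.168) and Rprd1b (0.898 and 0.061). These are descriptions over libraries that share depth, dissection and purity.

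The summed vessel and meninges markers, mostly Dcn, moved with Dlk1 and Dio3, whereas no other marker list passed. Of 55 relations between members and summed marker lists, 2 had a permutation adjusted p of r under 0.05, of which that with Dlk1 did not hold on ranks. The sum of 5 vessel and meninges markers had an r of 0.968 with Dio3 (permutation adjusted p = 0.0011, rho 0.916 with adjusted p = 0.0055) and of 0.872 with Dlk1 (permutation adjusted p = 0.0072, rho 0.755 with adjusted p = 0.083), or 0.927 and 0.787 without the 2 farthest libraries. That sum ran from 11.95 to 51.5 CPM, mostly Dcn, a matrix proteoglycan, at 8.53 to 47.2 CPM, and none of the 5 was at 0 in all 12 libraries. In the SIT libraries used it ran from 26.2 to 48.4 CPM. Mirg had an r of 0.726 with that sum (permutation adjusted p = 0.10) and a rho of 0.811 (adjusted p = 0.053). The excitatory list had an r of -0.75 with Dio3 (permutation adjusted p = 0.070) and of -0.69 with Dlk1 (adjusted p = 0.17). The endothelial list had an r of 0.00086 with Dio3 and of -0.090 with Dlk1. The astrocyte list had -0.36 and -0.017, or -0.83 and -0.80 without the 2 farthest libraries. The part of these cells in the Dlk1 and Dio3 levels was not tested.

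**Figure D5:**
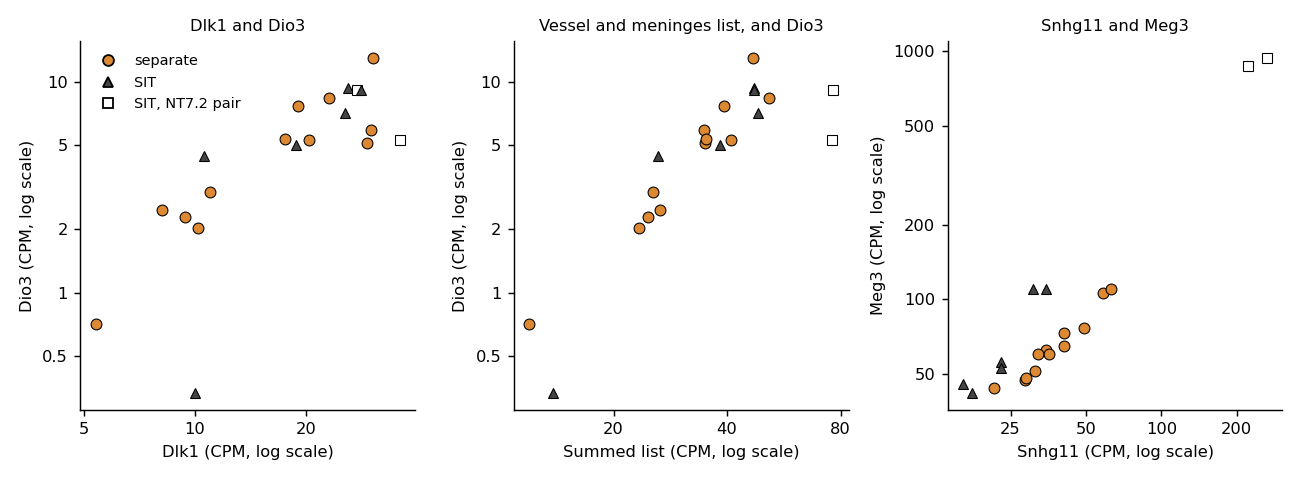
Covariation of members over libraries, all axes CPM on log scales. The panels plot Dlk1 against Dio3, the summed vessel and meninges markers against Dio3, and Snhg11 against Meg3, with circles for the 12 separate libraries, triangles for the SIT libraries and open squares for the NT7.2 pair. The points of each panel rise together (r of 0.912, 0.968 and 0.9704 over the separate libraries), and the NT7.2 pair continues the Snhg11 and Meg3 trend upward, lies among or beside the other points for Dlk1 and Dio3, and departs from the trend in the vessel and meninges panel, with the highest sums (76.1 and 76.6 CPM) at Dio3 levels of 5.30 and 9.11 CPM.

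Genes with a role around the members were followed through the same comparisons. Of 14 Notch pathway genes, related to Dlk1, 0 passed with exercise in SIT, on the left or on the right. Among sedentary mice 4 fell in SIT and 0 rose, namely Notch1 (-1.01), Notch2 (-0.85), Notch3 (-1.57) and Jag2 (-0.41), against 1922 of 18911 genes that fell. In the same comparison 5 of 7 astrocyte markers fell (median -0.51) and 6 of 7 inhibitory markers rose (median 1.15), and their part was not tested. Of 11 thyroid hormone genes, related to Dio3, 1 fell with ELE in SIT (Slco1c1, a thyroxine transporter, log2 -0.60) and 1 on the right (Crym, which binds thyroid hormone, -0.39), while none passed on the left. Over all genes 3.73% passed in SIT, 2.00% on the right and 2.12% on the left, and these single genes are given as a description. Of 11 regulators of the imprint, Zfp57 alone passed with exercise, on the left (0.88), where 2.12% of all genes did. In SIT among sedentary mice Atrx rose by 1.02 while Tet3 (-0.53) and Ezh2 (-0.56) fell, where 15.9% of all genes passed. These too are descriptions and not a result about the list. Of 9 flanking genes outside the imprinted domain, 0 passed with exercise in any isolation, and Begain, next to Dlk1, fell in SIT among sedentary mice (-0.44). 

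Among imprinted genes of other loci the growth inhibitor Cdkn1c and the growth factor Igf2 were lower with ELE past the unadjusted threshold in SIT and on the right. No gene had an adjusted p under 0.05 in either comparison by edgeR with the filter on low counts. Igf2 was scarce, at 0 to 3.54 CPM over the 18 libraries without the NT7.2 pair and at 1.02 and 3.54 CPM in the sedentary SIT pair. Of 22 tested, 5 fell and 0 rose with ELE in SIT, including Cdkn1c (-1.72), Igf2 (-1.94) and Ndn (-0.66), and on the right 2 fell, Cdkn1c (-2.003) and Igf2 (-2.90), where 3.73% and 2.00% of all genes passed. On the left none passed. In SIT 3 of 6 choroid plexus markers also fell (median -0.81) and 1 of 4 vessel and meninges markers, Igf2 itself, did (median -0.85). On the right 4 of 5 choroid plexus (median -2.95), 2 of 4 endothelial (-2.31) and 2 of 4 vessel and meninges markers (-0.88), Igf2 and Col1a1, fell. Their part in the imprinted genes' values was not tested. Among sedentary mice 7 of the 22 rose in SIT and 0 fell, with Cdkn1c at 1.74, Grb10 at 0.60, Peg3 at 0.44 and Nnat at 0.39 and a median of 0.30, against 1094 of 18911 genes that rose. Of 9 genes derived from retrotransposons like Rtl1, 1 fell with ELE in SIT (Rtl5, -0.57) and 1 on the left (Rtl4, -0.69), where 3.73% and 2.12% of all genes passed. The lists were chosen with results of these data known, and no test compares them with the members.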

How the data were processed

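RNA of 20 TRAP libraries was poly(A)-selected, made into strand-specific paired-end libraries and sequenced by the authors, who aligned reads to GRCm38.p6 with STAR 2.7.3a, removed duplicates with Picard 1.87 and deposited strand-aware, unnormalized counts per Ensembl gene. Duplicate removal without molecular identifiers limits the counts of abundant genes. The 24 columns of a second, wild-type count table were not used here, since they could not be tied to single samples. Libraries were tied to groups by their column names and are called by mouse number.

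Members and gene lists were chosen with earlier results of these data known. The 6 members are named in every comparison in which they passed the filter on low counts, and of each list at most 4 genes that passed. Identifiers were matched to GENCODE symbols with their version (54587 of 55335) or without (55154, Rian among these). Genes were kept by edgeR's filterByExpr (minimum count 10), scaled by TMM and tested with the quasi-likelihood test of edgeR 4.0.16 in R 4.3.3, each fit holding only the groups compared. P-values were adjusted over all genes tested by the Benjamini-Hochberg method. A gene passed at an unadjusted p under 0.05 and over 1.3-fold, the study's rule. DESeq2 1.42.0 was an alternative. Levels are CPM on TMM-scaled library totals. Correlations used log2 CPM with a pseudocount of 0.5 reads, with 100000 resamples for 12 libraries and exact enumeration for 6. Python 3.11.15 with scipy 1.17.1 was used, and the fits were tested on simulated data. No 2 libraries held the same counts. Intervals and limits cover counting error and the spread between these mice only.

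The alternatives were another scaling, no filter on low counts, DESeq2, all 8 SIT libraries, subsets of libraries, leaving out each library, and, chosen after seeing the data, a term for the series of mouse numbers and correlations over 6 SIT libraries. Mouse numbers of a series (TG7.3, TG9.1, TG9.2) shared 1 ELE and 1 sedentary mouse per side, and no label says what a series is.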

Additional observations from a re-analysis of the deposited data

Results flagged for a closer look

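The sedentary NT7.2 libraries, which the study left out, stood above the range of the other sedentary libraries for several members. Meg3 reached 937 and 872 CPM in NT7.2.3 and NT7.2.4, against 48.2 to 110.5 CPM in the others, and Rian reached 445 and 465.8 CPM against 58.3 to 69.9 CPM. Rtl1 reached 5.85 and 6.93 CPM against 0.0219 to 0.785 CPM, and Mirg 3.82 and 3.87 CPM against 0.517 to 0.989 CPM. Dlk1 was above the others in NT7.2.3 alone, at 35.9 CPM against 8.15 to 30.04 CPM.

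The exercise difference of Rtl1 differed between isolations by -4.03 (log2, SIT less separate). This is a description, since it shares the SIT libraries from which the gene was picked.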

How the results depend on the processing

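No paired analysis was possible because the columns carry mouse numbers and not the labels' replicate numbers, and the series of mouse numbers used as a term below is not that number. Of 908 alternatives for single members and pairs, 778 kept direction and side of the threshold, 23 lost the threshold, 29 gained it and 78 turned the sign. The cause was not tested. With all 8 SIT libraries, 5 members were past the threshold for exercise in SIT (1 otherwise, Rtl1, which is in both counts but carries no test there), 6 between isolations in sedentary mice (1, Dio3, otherwise), Rtl1 again included, and 4 for exercise by isolation (1 otherwise, Rtl1). Without a filter on low counts, 2 were past it for exercise in SIT, Rtl1 again included, 1 on the right (Dlk1, -0.66) and 1 between sides (0 otherwise for both). A term for the series of mouse numbers, chosen after seeing the data, gave 1 on the right (Dlk1, -0.78). Over all genes, dropping the filter moved the calls on the right from 131 higher and 220 lower to 247 and 472.

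Sign changes outside the omission of libraries were few. With all 8 SIT libraries Mirg gave -1.63 for exercise in SIT and 1.40 between isolations in sedentary mice, and Dlk1 -0.087 and Dio3 -0.15 between isolations in ELE mice. With NT6 mice only, Rian gave 0.0027 for exercise in SIT. The series term gave -0.050 for Meg3 on the right and -0.22 for Dio3 with both sides pooled, and Dlk1 gave 0.029 without the hemisphere term. Between isolations in ELE mice, Meg3 gave 0.00073 with the scaling of DESeq2, 0.00020 with DESeq2 and 0.061 with right libraries only, and with left libraries only Dlk1 gave -0.25 and Dio3 -0.12. Over the 6 SIT libraries the correlation was -0.049 for Dlk1 and Mirg, -0.23 for Rian and Dio3 and -0.60 for Mirg and Dio3, with 1 of 10 pairs past the threshold against 4, and without the 2 farthest libraries it was -0.41 for Meg3 and Rian.

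Leaving out each library in turn, the number of members that passed ranged from 0 to 3 for exercise in SIT, 0 to 1 on the left, 0 to 2 on the right, 0 to 1 between left and right, 0 to 2 for exercise by hemisphere, 0 to 2 and 0 to 1 between isolations in sedentary and ELE mice, and 0 to 1 for exercise by isolation. Values that turned ranged, for exercise in SIT, from -0.75 to 0.39 for Meg3 and -0.14 to 0.43 for Mirg. On the left they ranged from -0.19 to 0.45 for Meg3, -0.50 to 0.82 for Dio3 and -0.25 to 0.44 for Mirg, and on the right from -0.44 to 0.28, -1.79 to 0.14 and -0.38 to 0.54. With both sides pooled they ranged from -0.072 to 0.24 for Meg3, -0.23 to 0.23 for Dlk1, -0.48 to 0.29 for Dio3, -0.84 to 0.42 for Rtl1 and -0.083 to 0.36 for Mirg. Left against right gave -0.14 to 0.26 for Meg3, -0.05 to 0.43 for Dlk1, -0.011 to 0.46 for Mirg and -0.0050 to 0.065 for Rian, and exercise by hemisphere -0.25 to 0.64 for Meg3, -0.15 to 2.19 for Dio3, -0.54 to 0.52 for Mirg and -0.095 to 0.056 for Rian. Between isolations Meg3 ranged from -0.26 to 0.79 in sedentary mice, and in ELE mice Meg3 from -0.52 to 0.25, Dlk1 from -0.29 to 0.39, Dio3 from -0.16 to 0.75 and Rian from -0.17 to 0.00072. Exercise by isolation gave -0.87 to 0.26 for Meg3, -0.88 to 0.018 for Dio3 and -0.34 to 0.22 for Mirg. The correlations of Meg3 ranged from -0.30 to 0.40 with Rian, -0.067 to 0.50 with Mirg and -0.21 to 0.35 with Dio3. The deviations of the mice of a series correlated on the left by r of 0.284, -0.025 and 0.106 and on the right by 0.228, -0.138 and -0.136. With 1 ELE and 1 sedentary mouse per series and side, these values cannot tell whether the mice of a series are related.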
